A study of Mus musculus with 2 samples.

Results

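The expression of 10 genes that set cartilage or bone identity, or that restrain mineral deposition in soft tissue, was followed in nuclei of the mouse ascending aorta and arch. The genes were taken by symbol (Runx2, Sox9, Sox5, Sox6, Mgp, Enpp1, Chad, Comp, Cytl1 and Spp1), and each matched 1 of the 54754 features of both libraries. The animals were Wnt1-Cre;Rosa26-mTmG mice: Wnt1-Cre acts in neural crest of the embryo, and the reporter makes tdTomato until Cre switches it, for good and in all daughter cells, to GFP. All animals carried both alleles, no other genotype was compared, and the labels name no age. Tissue of several animals per sex was pooled, giving 1 Female and 1 Male library, and the technical replicates of each pool could not be told apart by barcode.

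Runx2 is the transcription factor that starts the osteoblast programme, and it is studied in arteries because smooth muscle cells of calcifying vessels can acquire it. Sox9, helped by Sox5 and Sox6, drives the chondrocyte programme. Against these stand secreted or membrane-bound brakes on mineral: Mgp, a vitamin K-dependent matrix protein whose loss lets mouse arteries calcify, Enpp1, an ectoenzyme that makes the mineral inhibitor pyrophosphate, and Spp1 (osteopontin), an acidic protein that binds mineral. Comp, of the thrombospondin family, Chad (chondroadherin) and Cytl1, a small cytokine-like secreted protein, are best known from cartilage.

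Unique molecular identifiers (UMIs) numbered 79294181 over 18872 Female barcodes and 77989549 over 20659 Male barcodes. Nuclei with at least 300 genes were kept, 18863 Female (median 3546 UMIs) and 20653 Male (median 3104 UMIs). Each nucleus took the class whose 3 marker genes had the largest summed UMI count, at least 3: muscle (Myh11, Acta2, Lmod1), endothelium (Ptprb, Flt1, Pecam1), fibroblast (Pdgfra, Dcn, Scara5), fat (Adipoq, Plin1, Plin4) or macrophage (Mrc1, F13a1, Cd163). This placed 92.4% of Female and 91.7% of Male nuclei, with 8124 and 7656 muscle, 5166 and 6766 endothelial, 2181 and 2477 fibroblast, 1475 and 1334 fat and 481 and 696 macrophage nuclei. None of the 10 genes was used for the classes. The libraries shared 4287 barcodes, and of the 3596 placed in a class in both, 31.0% had the same class, against 30.7% from the class sizes. Levels are UMIs of the gene scaled to the total of a class in a library (CPM), with no correction for gene length, so a level is compared between classes and not between genes. The UMIs were counted per gene, and whether they fell in exons or introns cannot be told apart. Intervals are 95% intervals that cover counting error only.

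Promoters are shown for 3 genes with different class patterns, Cytl1 (endothelium), Enpp1 (muscle and macrophage) and Runx2 (endothelium and fibroblast), so that their sequences can be read beside the levels. They run from 250 bases before to 50 bases after a RefSeq start site on GRCm38.p6, 5′ to 3′ on the gene's strand. Capitals mark matches, on either strand, to motifs of known factors. The RUNX core was searched as TGTGGT. The SOX core was searched as AACAAT. The core promoter element found upstream of many start sites was searched as TATAAA, and the motif of SP factors was searched as GGGCGG.

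Cytl1, chr5:37735269-37735568, plus strand: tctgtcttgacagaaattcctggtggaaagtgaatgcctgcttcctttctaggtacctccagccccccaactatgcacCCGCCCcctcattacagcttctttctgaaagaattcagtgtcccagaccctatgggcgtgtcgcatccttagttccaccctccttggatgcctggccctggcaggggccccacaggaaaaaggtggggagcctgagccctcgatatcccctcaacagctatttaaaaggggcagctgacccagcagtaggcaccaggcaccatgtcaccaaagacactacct

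Enpp1, chr10:24712110-24712409, minus strand: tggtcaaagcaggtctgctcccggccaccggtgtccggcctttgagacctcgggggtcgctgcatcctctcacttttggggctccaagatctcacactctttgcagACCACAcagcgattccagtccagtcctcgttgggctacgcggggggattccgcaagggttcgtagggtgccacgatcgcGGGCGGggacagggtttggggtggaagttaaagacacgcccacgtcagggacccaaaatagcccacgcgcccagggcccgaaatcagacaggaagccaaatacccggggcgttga

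Runx2, chr17:44814578-44814877, minus strand: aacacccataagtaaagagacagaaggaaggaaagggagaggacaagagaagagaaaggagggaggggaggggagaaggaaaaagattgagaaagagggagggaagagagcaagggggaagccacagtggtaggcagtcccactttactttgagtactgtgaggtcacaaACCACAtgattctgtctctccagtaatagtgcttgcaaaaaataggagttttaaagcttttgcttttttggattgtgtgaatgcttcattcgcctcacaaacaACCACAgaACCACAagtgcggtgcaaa

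The Runx2 window held 3 matches to the RUNX core, the Enpp1 window 1 and the Cytl1 window 0. A match to the RUNX core occurred in 16.8% of the 32851 promoters of 300 bases in the same table, to the SOX core in 10.7%, to the core promoter element in 13.6% and to the SP motif in 35.7%. The windows of Cytl1 and Enpp1 each held 1 SP motif. The 4 motifs do not overlap each other in these windows. A match is a description of the letters and not a binding site.

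Runx2 (ENSMUSG00000039153, chromosome 17: 44495987 to 44814797, minus strand) was found in endothelium and fibroblasts above muscle. It had 57.1 CPM in Female and 52.7 CPM in Male endothelium, 51.4 and 34.6 CPM in fibroblasts, 21.4 and 18.8 CPM in muscle, 18.8 and 10.98 CPM in macrophages and 4.24 and 7.35 CPM in fat. Endothelium and fibroblasts lay above muscle in both libraries without overlap. In edgeR's quasi-likelihood test over the 10 sums of library and class, with library as a block and Benjamini-Hochberg adjustment over all 19490 genes, muscle was 1.37 lower than endothelium on the log2 scale (SE 0.20, log2 fold change -1.37, adjusted p = 0.00026) and 0.95 lower than fibroblasts (SE 0.20, log2 fold change -0.95, adjusted p = 0.0038). Endothelium and fibroblasts were not separated by edgeR's test (log2 difference 0.41, SE 0.20, adjusted p = 0.133), nor were muscle and macrophages (0.64, SE 0.31, adjusted p = 0.123). Both pairs did pass in stricter nuclei, a set chosen after seeing the data that leaves out nuclei called doublets by scrublet and those whose largest marker sum is under 3 times the next (0.53, edgeR adjusted p = 0.016, and 1.08, edgeR adjusted p = 0.0073). Runx2 overlaps the protein-coding Supt3 and 3 antisense models on the opposite strand, and the sources used here do not say whether counting used strand, so reads of these models cannot be told apart.

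Sox9 (ENSMUSG00000000567, chromosome 11: 112782224 to 112787760, plus strand), the chondrocyte factor, was sparse and highest in fibroblasts. It had 323 Female and 217 Male UMIs in all, at 11.6 and 9.35 CPM in fibroblasts, 4.21 and 2.58 CPM in muscle, 3.07 and 1.35 CPM in fat, 3.36 and 0.44 CPM in macrophages and 0.96 and 0.98 CPM in endothelium. Fibroblasts were above every other class in both libraries, and macrophages rested on 5 and 1 UMIs. Fibroblast CPM was 3.09 times that of muscle on average (log2 fold change of muscle over fibroblast -1.53, SE 0.30, edgeR adjusted p = 0.0024), and the call was lost in nuclei thinned to 1000 UMIs (0.98 for fibroblast over muscle, edgeR adjusted p = 0.054). Muscle was above endothelium (log2 fold change 1.82, SE 0.35, edgeR adjusted p = 0.0018). No gene model overlaps Sox9.

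Sox5 (ENSMUSG00000041540, chromosome 6: 143828425 to 144781977, minus strand), a partner of Sox9 that lacks an activation domain of its own, was a gene of fat nuclei first and of endothelium next. Its levels were 1850.4 and 1919 CPM in fat, 1352 and 957 CPM in endothelium, 705 and 714 CPM in fibroblasts, 655 and 638 CPM in muscle and 193 and 149.7 CPM in macrophages. Both libraries gave the same order. After thinning each nucleus to 1000 UMIs, at least 1 Sox5 UMI was found in 76.6% and 80.6% of fat nuclei, 57.8% and 45.4% of endothelial, 39.0% and 40.2% of fibroblast, 39.1% and 37.5% of muscle and 8.20% and 6.11% of macrophage nuclei. Before thinning these shares were 97.8% and 97.2% in fat and 13.5% and 11.8% in macrophages. Fat was above endothelium (log2 fold change of endothelium over fat -0.68, SE 0.15, edgeR adjusted p = 0.0024) and endothelium above fibroblasts (0.73, SE 0.15, edgeR adjusted p = 0.0029), while fibroblasts and muscle differed by 0.0056 (SE 0.15, edgeR adjusted p = 0.983). In fat nuclei with 3 or more UMIs of Ucp1, the uncoupling protein of thermogenic fat, Sox5 had 2069 and 2051 CPM, and in those without a Ucp1 UMI 1709 and 1868 CPM, so the level was high in both kinds. Sox5 overlaps 5 antisense models and 2 on its own strand.

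Sox6 (ENSMUSG00000051910, chromosome 7: 115470872 to 116038796, minus strand), the close relative of Sox5, was shared by fat and muscle. It had 516 and 575 CPM in fat, 325 and 303 CPM in muscle, 151 and 202 CPM in fibroblasts, 119 and 123 CPM in endothelium and 58.5 and 27.2 CPM in macrophages. Muscle was 2.59 times as high as endothelium on average (log2 fold change 1.46, SE 0.23, edgeR adjusted p = 0.00043), the reverse of Sox5, for which muscle was below endothelium (-0.74, SE 0.15, edgeR adjusted p = 0.0023). Muscle was also above fibroblasts (0.96, SE 0.22, edgeR adjusted p = 0.0069) and below fat (-0.67, SE 0.22, edgeR adjusted p = 0.024), a call that was lost in the stricter nuclei (0.66 for fat over muscle, edgeR adjusted p = 0.075). The macrophage levels of Sox5 and Sox6 were lower there, 52.1 and 21.7 CPM for Sox5 and 34.8 and 4.45 CPM for Sox6. Fibroblasts and endothelium were not separated by edgeR (adjusted p = 0.108). Sox6 overlaps 2 antisense models.

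The unassigned nuclei held a further source of Sox6. In the 190 Female and 293 Male unassigned nuclei whose largest marker sum among other listed cell types was that of mesothelium, the lining of body cavities, with at least 3 UMIs and no tie, Sox6 had 1701 CPM (interval 1604 to 1801) and 1370.4 CPM (1301 to 1442), above its level in each of the 5 classes, and 90.5% and 87.0% of these nuclei had a Sox6 UMI. Unassigned nuclei with no marker set of another listed cell type had 114 and 152 CPM. Sox6 is not among the mesothelial markers (Upk3b, Msln, Wt1, Upk1b and Krt19).

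**Figure D1:**
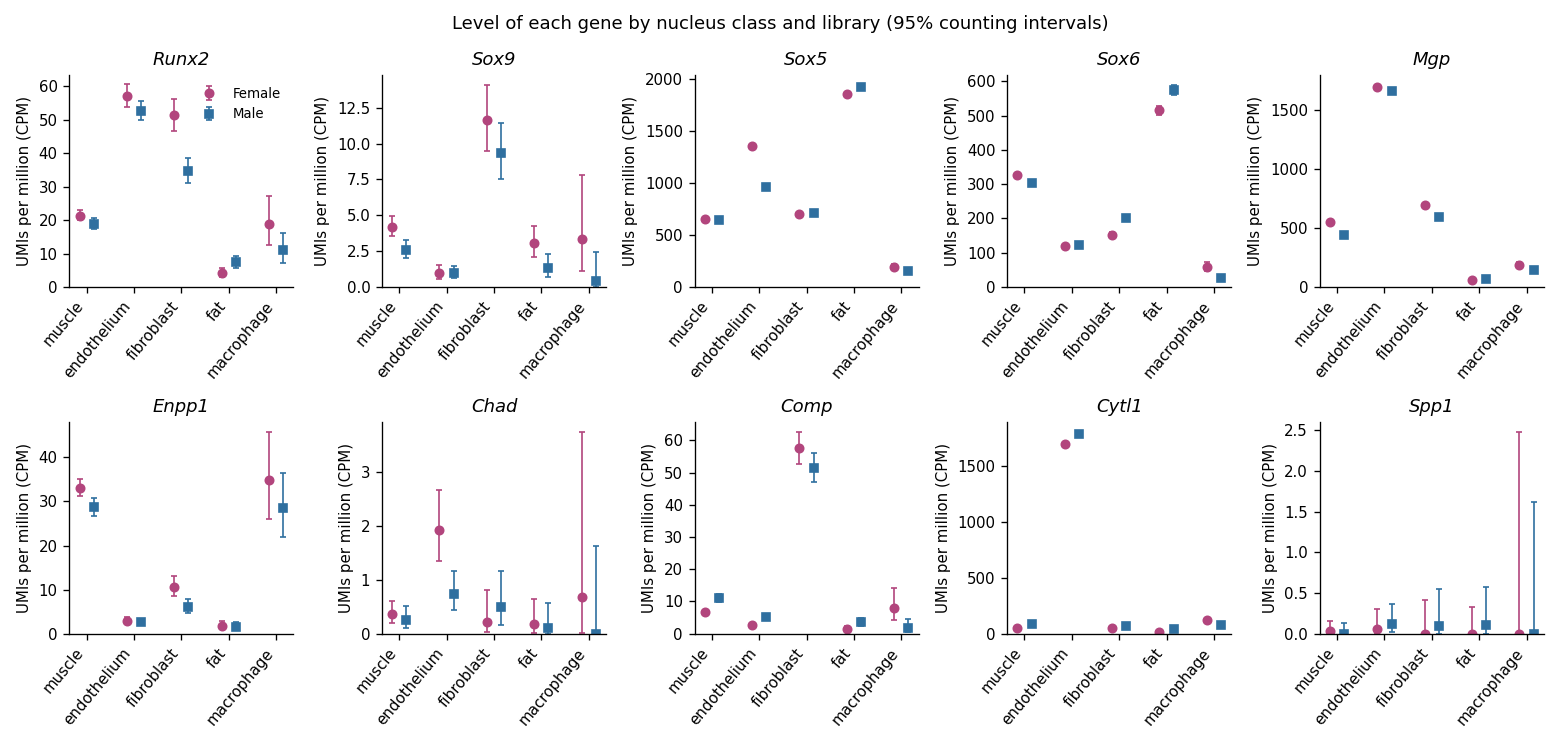
Level of each of the 10 genes (vertical axis, CPM, linear, each panel with its own scale from 0) in the 5 nucleus classes of the Female (circles) and Male (squares) libraries; bars are 95% counting intervals. Cytl1 stands at 1697 and 1791 CPM in endothelium and at 118 CPM or lower elsewhere, Sox5 and Sox6 are highest in fat, Comp and Sox9 in fibroblasts, and Spp1 is at or near 0 in all classes.

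Mgp (ENSMUSG00000030218, chromosome 6: 136872435 to 136875823, minus strand), the vitamin K-dependent inhibitor of arterial calcification, was highest in endothelium. It had 1701 and 1666 CPM in endothelium, 695 and 597 CPM in fibroblasts, 552 and 439.8 CPM in muscle, 186 and 146 CPM in macrophages and 56.4 and 66.3 CPM in fat. The libraries gave the same order, and endothelium lay above all other classes in both. Muscle had 0.295 of the endothelial level on average (log2 fold change -1.68, SE 0.14, edgeR adjusted p = 4.3e-06), and fibroblasts and muscle did not separate in edgeR's test (-0.25 for muscle over fibroblast, SE 0.13, adjusted p = 0.171). A Mgp UMI was found in 62.2% and 62.4% of endothelial nuclei thinned to 1000 UMIs, 35.2% and 28.5% of fibroblast, 32.8% and 28.0% of muscle and 4.17% and 6.37% of fat nuclei. Fat was the class with the lowest Mgp level and had unthinned shares of 27.1% and 24.3% at median depths of 6875 and 6979 UMIs, against 64.6% and 51.4% in muscle at 3844.5 and 3015.5 UMIs.

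Enpp1 (ENSMUSG00000037370, chromosome 10: 24637914 to 24712159, minus strand), the pyrophosphate-making ectoenzyme, was a gene of muscle and macrophages. It had 33.1 and 28.7 CPM in muscle, 35.0 and 28.5 CPM in macrophages, 10.6 and 6.07 CPM in fibroblasts, 2.89 and 2.63 CPM in endothelium and 1.80 and 1.55 CPM in fat. Muscle and macrophages overlapped (log2 fold change 0.12, SE 0.18, edgeR adjusted p = 0.635) and both lay above the other 3 classes. Muscle was 11.2 times as high as endothelium (log2 fold change 3.56, SE 0.18, edgeR adjusted p = 1.8e-07) and 3.70 times as high as fibroblasts (2.04, SE 0.17, edgeR adjusted p = 6.8e-06). Muscle nuclei held 81.7% of the 1463 Female and 76.1% of the 1064 Male Enpp1 UMIs. Mgp and Enpp1, both brakes on mineral, thus had opposite orders for muscle and endothelium.

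Spp1 (ENSMUSG00000029304, chromosome 5: 104435118 to 104441050, plus strand), or osteopontin, had very few UMIs. It had 2 Female and 16 Male UMIs, 0 of them in the 481 and 696 macrophage nuclei, which allows a share of up to 0.624% and 0.431% of nuclei with a UMI at median depths of 2392 and 2682 UMIs, and sets no limit on nuclei that express it. In muscle it had 1 and 0 UMIs. Of the 16 Male UMIs, 11 lay in 5 unassigned nuclei. It had too few UMIs for any test, and it overlaps 1 uncharacterized model.

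Comp (ENSMUSG00000031849, chromosome 8: 70373558 to 70382066, plus strand), the thrombospondin-family matrix protein, was a fibroblast gene. It had 57.5 and 51.3 CPM in fibroblasts, 6.59 and 11.1 CPM in muscle, 8.07 and 1.76 CPM in macrophages, 2.62 and 5.09 CPM in endothelium and 1.44 and 3.52 CPM in fat. Fibroblasts were 6.15 times as high as muscle on average (log2 fold change of muscle over fibroblast -2.54, SE 0.31, edgeR adjusted p = 0.00011), with no overlap. Only 3.87% and 4.05% of fibroblast nuclei thinned to 1000 UMIs had a Comp UMI (8.53% and 7.99% unthinned), and a single nucleus had up to 18 and 23 UMIs. Muscle was above endothelium (1.27, SE 0.34, edgeR adjusted p = 0.013).

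Chad (ENSMUSG00000039084, chromosome 11: 94565047 to 94569127, plus strand), a leucine-rich matrix protein of cartilage, had 60 Female and 40 Male UMIs in all. Endothelium had 36 and 18 of them (1.92 and 0.74 CPM), muscle 13 and 7, fibroblasts 2 and 5, fat 2 and 1 and macrophages 1 and 0. Endothelium was above fat (log2 fold change 3.13, SE 0.77, edgeR adjusted p = 0.0051) and muscle (muscle over endothelium -1.96, SE 0.53, edgeR adjusted p = 0.012), and no other pair passed. The call over muscle was not made by DESeq2 (adjusted p = 0.065). Chad lies opposite the protein-coding Acsf2, and without strand the reads of the 2 genes cannot be told apart.

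Cytl1 (ENSMUSG00000062329, chromosome 5: 37735519 to 37739820, plus strand), known as a chondrocyte product, was an endothelial transcript here. It had 1697 and 1791 CPM in endothelium, 118 and 77.7 CPM in macrophages, 48.3 and 86.3 CPM in muscle, 49.5 and 66.1 CPM in fibroblasts and 18.5 and 42.5 CPM in fat. Endothelial nuclei held 91.4% of 34731 Female and 91.3% of 47836 Male UMIs, and after thinning 71.4% and 72.9% of them had a Cytl1 UMI, against 3.36% and 5.26% of muscle nuclei. The log2 fold change was 4.23 (SE 0.34, edgeR adjusted p = 5.2e-06) over macrophages, the next class, and -4.66 for muscle over endothelium (SE 0.34, edgeR adjusted p = 1.7e-06). No gene model overlaps Cytl1, Mgp, Enpp1 or Comp.

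**Figure D2:**
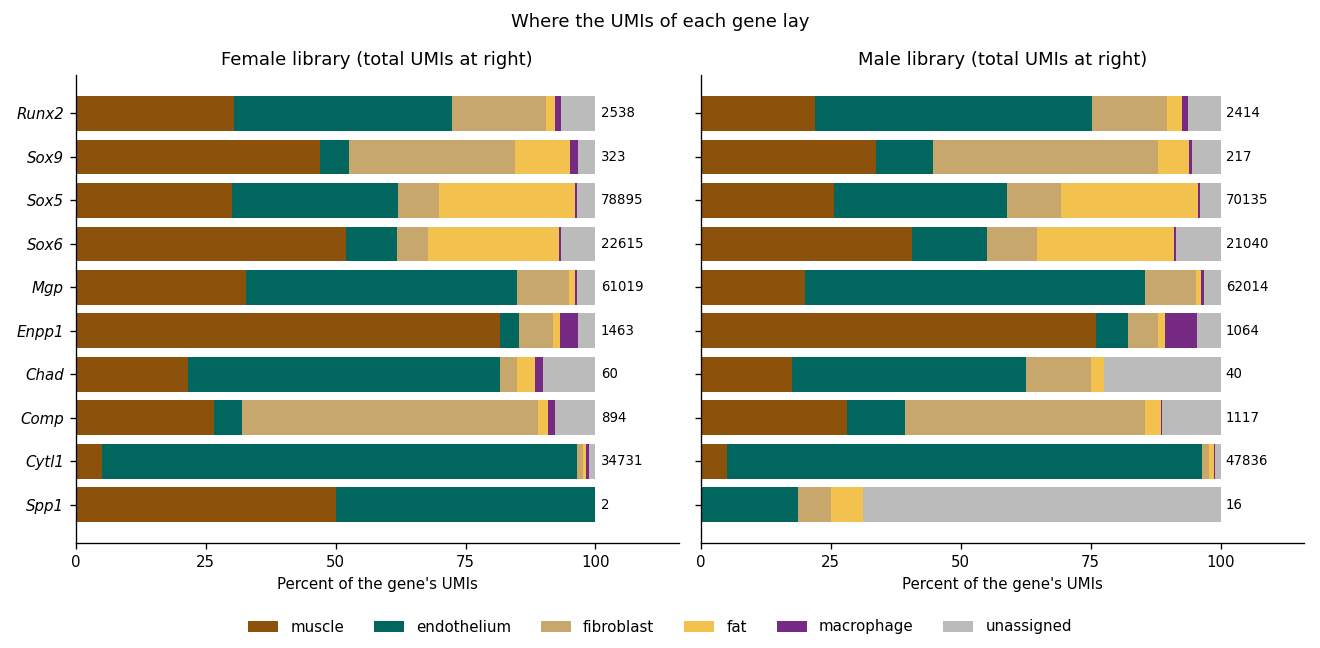
Share of the UMIs of each gene (horizontal axis, percent) that lay in nuclei of each class or in unassigned nuclei, with the gene's total UMIs at the right of each bar, for the Female and the Male library. Cytl1 UMIs were endothelial for 91.4% and 91.3%, Enpp1 UMIs lay in muscle for 81.7% and 76.1%, and Sox5 UMIs were spread over muscle, endothelium and fat.

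Over all pairs of classes, 65 of 90 combinations of gene and pair passed edgeR's test at an adjusted p of 0.05, beside 48.4% of all combinations of gene and pair over 19490 genes. Sox5, Sox6, Mgp and Enpp1 passed in 9 of 10 pairs each, Runx2 in 8, Cytl1 in 7, Comp and Sox9 in 6 and Chad in 2. By pair the background was 44.9% for muscle and endothelium, 38.1% for muscle and fibroblast, 62.4% for muscle and fat, 43.3% for muscle and macrophage, 38.4% for endothelium and fibroblast, 64.3% for endothelium and fat, 38.1% for endothelium and macrophage, 61% for fibroblast and fat, 40.7% for fibroblast and macrophage and 52.7% for fat and macrophage. The number of genes that pass is large for genes of any kind, and the pattern over classes, not the count, describes the 10 genes. The replicates are 2 pools that also differ in sex, and the library block takes up the shift that all classes of a pool share. The p-values thus rest on how far class differences varied between these pools, with a spread drawn partly from all genes.

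The low Cytl1 level outside endothelium was set beside 7 other endothelial genes, a list chosen after the data had been seen (Cdh5, Emcn, Egfl7, Vwf, Tie1, Tek and Erg). In muscle, Cytl1 had 2.85% and 4.82% of its endothelial CPM. Cdh5, the cadherin of endothelial junctions, had 2.91% and 4.998%, Vwf 3.32% and 5.03%, Emcn 3.26% and 3.91%, Tie1 2.81% and 4.95%, and Egfl7 3.25% and 5.65%. Tek had 2.72% and 4.93%. Cytl1 lay within the range of these 6 genes in muscle of both libraries. In fibroblasts it had 2.92% and 3.69%, above Egfl7 at 2.70% and 3.06% and Emcn at 1.19% and 3.07%. Erg, an ETS transcription factor, was an exception in muscle, with 51.2% and 43.2%, and Tek, the angiopoietin receptor, in fibroblasts, with 27.0% and 37.1%. Mgp lay far above the range in muscle, with 32.5% and 26.4%.

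In the stricter nuclei Cytl1 in muscle was at 1.18% and 1.77% of endothelium, Cdh5 at 0.949% and 1.85% and Vwf at 1.496% and 2.02%, while Mgp stayed at 30.1% and 22.3%. The ratio of Mgp to Cytl1 UMIs was 1.003 and 0.930 in endothelium, 11.4 and 5.09 in muscle and 14.04 and 9.03 in fibroblasts. The ratio was higher in muscle and fibroblasts than in endothelium in both libraries. Cytl1 in fibroblasts of the stricter nuclei was at 2.12% and 2.45%, Egfl7 at 2.05% and 2.15% and Emcn at 0.46% and 2.32%. The part of free RNA or of mixed nuclei in these levels was not tested. Runx2 in muscle was at 37.4% and 35.7% of endothelium, and at 34.5% and 29.6% in the stricter nuclei.

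**Figure D3:**
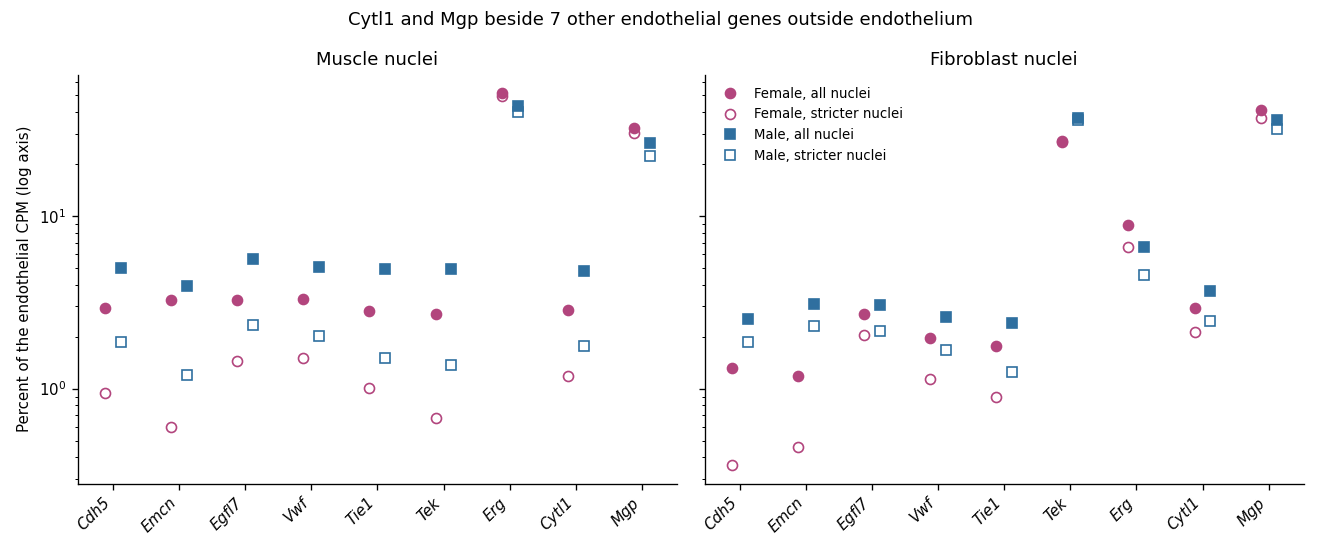
Level in muscle (left) and fibroblast (right) nuclei as a percent of the endothelial CPM (vertical log axis) for 7 endothelial genes, Cytl1 and Mgp, in the Female (circles) and Male (squares) libraries; filled symbols are all nuclei and open symbols the stricter nuclei. In muscle Cytl1 lies with Cdh5, Emcn, Egfl7, Vwf, Tie1 and Tek, while Mgp (32.5% and 26.4%) and Erg (51.2% and 43.2%) lie far above them.

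Genes whose pattern over the 10 sums of library and class was most like that of a member were found by Pearson's r of log2(CPM + 5), as a description of sums that share libraries. Cytl1 was closest to Ptprb (r = 0.996, itself a class marker), Podxl (0.994) and Vwf (0.994). Mgp was closest to Ltbp4 (0.998), Prdx4 and Fbxl7, Runx2 to Pcdhga11 (0.991), Nudc and Acvrl1, and Sox5 to Lmtk2 (0.989), Ankrd28 and Gpc4. Sox6 was closest to Ankrd39 (0.974), Acbd4 and Rarb, Enpp1 to Tuba1c (0.964), Tmod1 and Trpv2, Comp to B3gnt9 (0.988), Fmnl2 and Nkd2, and Sox9 to Map2 (0.988), Atp10b and Dnah7b. For Chad, with few counts, the closest were the B cell genes Ms4a1 (0.925) and Cd79a and then Slc26a4.

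Wider lists placed the 10 genes in their pathways; each was chosen with earlier results of these data known. Of 31 osteochondral regulators 25 were tested, and 11 were higher and 9 lower in muscle than in endothelium, with a median log2 fold change of 0.65 beside 0.00063 over all genes. Of all genes, 44.9% passed in either direction in this pair and 38.1% in muscle and fibroblast. The muscle-higher genes were led by Bmpr1b, a bone morphogenetic protein receptor (718 and 844 CPM in muscle against 32.1 and 40.6 CPM in endothelium), Sp7, the osteoblast factor downstream of Runx2 (36 and 7 muscle UMIs), Tnfrsf11b (osteoprotegerin, 28.1 and 16.7 CPM) and Sost, which encodes the Wnt inhibitor sclerostin (157 and 167 CPM against 16.7 and 15.6 CPM). Their log2 fold changes were 4.51, 4.28, 3.48 and 3.41, with edgeR adjusted p from 4.0e-08 to 0.0062. Lower in muscle were the ligand Bmp4 (-4.66), Pthlh (-3.74), Zfp521 (-3.25) and Twist1 (-2.84). Against fibroblasts, 8 were higher and 9 lower in muscle (median -0.19 beside 0.011 over all genes), with Tnfrsf11a (5.87), Ihh (4.54), Sost (4.37) and Bmpr1b (2.80) at the top and Zfp521 (-3.97), Twist2 (-3.46), Klf4 (-2.96) and Pthlh (-2.27) at the bottom.

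Of 26 genes of mineral and phosphate control 18 were tested, and 6 were higher and 4 lower in muscle than in endothelium (median 0.35). In this pair 44.9% of all genes passed in either direction. Phex (1.80), Xpr1, the phosphate exporter (1.48), Alpl, the alkaline phosphatase that degrades pyrophosphate (1.34), and Slc20a2, a phosphate importer (1.17), were higher in muscle. Nt5e, which makes extracellular adenosine (-4.41), Ahsg, which encodes the circulating inhibitor fetuin-A (-4.37), Smpd3 (-2.42) and Vkorc1, of the vitamin K cycle (-1.54), were lower. Against fibroblasts 4 were higher and 9 lower in muscle (median -0.88, beside 0.01 over all genes), where 38.1% of all genes passed. Entpd1 (5.04) and Xpr1 (2.04) led those higher in muscle, and Smpd3 (-4.47), Enpp3 (-3.14), Abcc6 (-2.34) and Ahsg (-2.27) led those lower. Alpl had 10.99 and 9.24 CPM in muscle and 4.33 and 4.10 CPM in endothelium. Of 30 measured cartilage matrix genes 23 were tested, and 10 were higher and 3 lower in muscle than in endothelium (median 1.11), while 5 were higher and 13 lower in muscle than in fibroblasts (median -0.72). The shares of all genes that passed were again 44.9% and 38.1%. Acan, the core protein of the cartilage proteoglycan aggrecan, had 37.1 and 38.0 CPM in muscle against 1.34 and 1.64 CPM in endothelium (log2 fold change 4.72, SE 0.54, edgeR adjusted p = 4.8e-05) and 0.79 and 0.30 CPM in fibroblasts. Ogn (3.14), Wisp2 (3.06) and Snorc (4.71) were the other leading muscle-higher genes, and Cilp (-5.04), Matn3 (-4.98), Epyc (-4.88) and Fmod (-3.71) led those lower in muscle than in fibroblasts. Of the 23, 10 had their highest level in fibroblasts and 4 in muscle.

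The markers of chondrocytes and osteoblasts were mixed in muscle. The 11 chondrocyte markers summed to 45.4 and 46.4 CPM in muscle, against 6.79 and 6.32 CPM in endothelium, 8.69 and 6.27 CPM in fibroblasts, and 67.3 and 4.83 CPM in macrophages, where the Female value held 37.7 CPM of Acan. Acan made up most of the muscle sum (1342 of 1641 and 1073 of 1310 UMIs), followed by Col11a2 with 166 and 125 UMIs. Col2a1, the collagen of hyaline cartilage, had 5 UMIs in each library's muscle nuclei, and 3 markers in Female and 1 in Male muscle were at 0. The 7 osteoblast markers summed to 24.7 and 16.9 CPM in muscle, 36.8 and 26.9 CPM in fibroblasts and 9.19 and 5.74 CPM in endothelium. In muscle most of this came from Alpl (397 and 261 UMIs) and Phex (439 and 177 UMIs), while Bglap (osteocalcin) had 6 and 9 UMIs, Ibsp 13 and 24, Sp7 36 and 7, and Bglap2 and Dmp1 0.

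Muscle nuclei were split by the reporter to compare neural crest-derived with other muscle, in 2420 Female and 2196 Male nuclei with GFP UMIs alone and 1729 and 1430 with tdTomato UMIs alone. A nucleus needed at least 1 UMI of one reporter and 0 of the other. UMIs of both reporters were found in 541 and 568 muscle nuclei, and of neither in 3434 and 3462, and these were left out. The groups are thus reporter groups and not proven lineages. Of 8 genes tested, 3 passed edgeR's quasi-likelihood test over 4 sums with library as a block (adjusted p of 0.05), all lower in GFP-only nuclei, beside 1.19% of 14558 genes lower, 0.996% higher and 2.18% in either direction. Sox5 had 620 and 596 CPM in GFP-only and 702 and 688 CPM in tdTomato-only nuclei (log2 fold change -0.20, SE 0.034, adjusted p = 0.027), and Mgp had 528 and 432 CPM against 593 and 504 CPM (-0.20, SE 0.037, adjusted p = 0.034). The Sox5 groups did not overlap, while the Mgp groups did between libraries (528 CPM in Female GFP-only and 504 CPM in Male tdTomato-only nuclei). Cytl1 had 36.3 and 70.2 CPM against 60.03 and 89.5 CPM (-0.53, SE 0.095, adjusted p = 0.030), and its groups overlapped between libraries.

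Of the 7 endothelial genes, 6 together summed to less in GFP-only than in tdTomato-only muscle nuclei, and Erg was near equal. Erg was set apart from the other 6 after the data had been seen. Without Erg, which made up 75.7% and 60.1% of the summed level of the 7 endothelial genes in muscle, the other 6, all detected, summed to 56.6 and 116.1 CPM in GFP-only and 125 and 184 CPM in tdTomato-only muscle nuclei, while Erg itself had 292 and 227 CPM against 296 and 229 CPM. Of these nuclei, 4.13% and 6.51% of the former and 7.63% and 10.6% of the latter were called doublets, and among endothelial nuclei 2206 and 2799 had tdTomato UMIs alone against 271 and 406 with GFP alone. In the stricter nuclei the 6 genes summed to 33.3 and 55.1 CPM in GFP-only and 36.03 and 54.4 CPM in tdTomato-only muscle, and the Cytl1 difference was 0.15 (SE 0.12, edgeR adjusted p = 0.731), in the opposite direction, and that of Mgp was -0.13 (adjusted p = 0.110), while Sox5 kept -0.21 (adjusted p = 0.0012). The choice of the stricter nuclei itself removes endothelial RNA, and the cause of these differences was not tested. Of the 8 genes, 0 passed in DESeq2 and 0 without the library block. In these fits 95 and 4 of all genes passed, and 458 and 640 had an unadjusted p below 0.05.

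Runx2 was higher in GFP-only muscle nuclei in both libraries, 25.7 against 13.03 CPM (288 and 114 UMIs, ratio 1.97, interval 1.58 to 2.47) and 17.5 against 13.4 CPM (153 and 84 UMIs, ratio 1.30, interval 0.989 to 1.72), but did not pass (log2 difference 0.71, SE 0.17, edgeR adjusted p = 0.085). After thinning to 1000 UMIs, 2.51% of GFP-only and 0.879% of tdTomato-only Female muscle nuclei had a Runx2 UMI. In the Male library these shares were 1.02% and 1.18%, so they did not go the same way as the CPM. The Runx2 comparison passed in 8 of 13 alternatives, with adjusted p from 1.9e-05 to 0.999988 over them, and in the stricter nuclei the log2 fold change was 1.12 (edgeR adjusted p = 0.00028). Sox9 had 5.79 against 2.40 CPM and 4.11 against 2.08 CPM, from 65, 21, 36 and 13 UMIs (log2 difference 1.14, SE 0.30, edgeR adjusted p = 0.124), and passed in 3 of 12 alternatives. The other genes had log2 differences of 0.07 (Sox6, SE 0.042), -0.04 (Enpp1, SE 0.10) and 0.0027 (Comp, SE 0.20). In the Male library alone the log2 difference was 0.37 for Runx2 and -0.35 for Cytl1, and in the Female library alone 0.96 and -0.72. Chad and Spp1 had too few UMIs for a test.

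**Figure D4:**
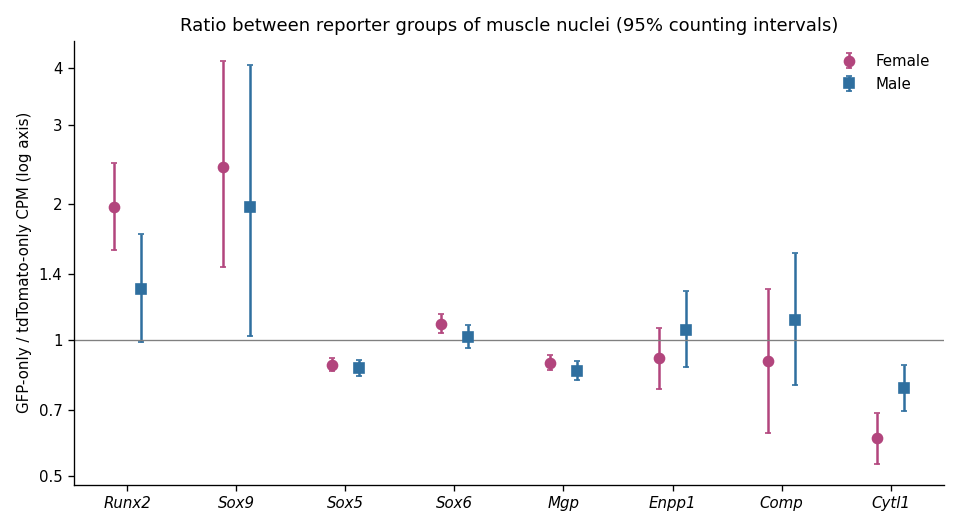
Ratio of CPM in GFP-only to tdTomato-only muscle nuclei (vertical log axis) for the 8 genes tested, in the Female (circles) and Male (squares) libraries, with 95% counting intervals; the line marks a ratio of 1. Runx2 and Sox9 lie above 1 and Sox5, Mgp and Cytl1 below 1 in both libraries, and the Male interval of Runx2 includes 1.

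Among the 21 tested osteochondral regulators, Bmpr1b was higher in GFP-only muscle (830 and 919 CPM against 549 and 718 CPM, log2 fold change 0.47, edgeR adjusted p = 0.0034). Bmp4 was lower (23.2 and 28.2 CPM against 49.2 and 54.4 CPM, -1.02, edgeR adjusted p = 0.00095), and it is a gene with 1179.8 and 1057 CPM in endothelium. Of 16 mineral control genes Enpp3, a relative of Enpp1, was higher (6.23 and 8.90 CPM against 1.49 and 2.88 CPM, 1.82, edgeR adjusted p = 0.016), and of 13 cartilage matrix genes 0 passed. The medians of the 3 lists were -0.06, -0.03 and 0.17, beside -0.00061 over all genes. Of all genes, 2.18% passed in either direction.

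Which of the 10 genes were found in the same nuclei was described as the number of nuclei with UMIs of both genes over the number expected within deciles of depth. In muscle, Runx2 and Sox6 were found together in 127 Female and 106 Male nuclei, 0.608 and 0.723 of the number expected, and in the stricter nuclei 0.49999 and 0.631. Runx2 and Enpp1 occurred together in 70 and 39 muscle nuclei, 1.43 and 1.32 times the number expected, and 1.54 and 1.48 times in the stricter nuclei. So Runx2 was found less with Sox6 and more with Enpp1 than depth alone gave, in both libraries. Runx2 and Cytl1 were at 1.75 and 1.37, but at 1.27 and 0.822 in the stricter nuclei. In fibroblasts, Comp was found with Runx2 at 1.63 and 1.63 times the number expected (34 and 27 nuclei) and with Mgp at 1.18 and 1.36 times, but with Sox6 at 0.621 and 0.572 (16 and 20 nuclei). In the stricter nuclei these values were 1.67 and 1.66, 1.20 and 1.4002, and 0.679 and 0.609. Nuclei of a library are not replicates, and no test was made.

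The 411 Female and 291 Male muscle nuclei with a Runx2 UMI had less of the other contractile genes than those without, 7484 against 10205 CPM and 8019 against 11364 CPM. The 6 endothelial genes without Erg summed to 261 against 85.02 CPM and 370.3 against 142 CPM in them, Erg had 429 against 288 CPM and 342 against 227 CPM, and 15.3% and 23.0% of them were called doublets, against 5.16% and 7.36%. In the stricter nuclei, with 326 and 206 that had a Runx2 UMI, the contractile sums were 8108 against 10707 CPM and 8972 against 12223 CPM, the sums of the 6 endothelial genes 26.2 against 36.6 CPM and 61.5 against 60.4 CPM, and Erg had 434 against 293 CPM and 364 against 227 CPM. The lower contractile sum and the higher Erg level were thus present in both libraries of the stricter nuclei. The 6 other endothelial genes were not higher there in the Female library and differed little in the Male. The choice of these nuclei itself removes endothelial RNA. With against without Runx2, the 3 fibroblast markers summed to 84.1 against 34.6 CPM and 59.3 against 52.8 CPM. Median depths were 4106 against 3759.5 and 3955 against 2871 UMIs. In the stricter nuclei the contractile sum was also lower with a UMI of Sox9 (9819 against 10601 and 10968 against 12107 CPM) or Enpp1 (10005 against 10679 and 11590 against 12160 CPM), but not of Comp. In all muscle nuclei it was lower with a UMI of Comp too (9476 against 10064 and 10597 against 11205 CPM). The cause was not tested.

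The sexes were compared with 1 library each, so no test was possible, and differences are between these libraries. Among combinations of the 10 genes with the 5 classes and 2 reporter groups of muscle, a gene counted as 2-fold apart after adding 5 CPM where it had at least 50 UMIs and 20 CPM in either library. Only Cytl1 in fat reached this, with 18.5 Female and 42.5 Male CPM (log2 ratio -1.01), beside 2.02% of genes in fat. The share was 0.43% in GFP-only and 0.776% in tdTomato-only muscle. In fat nuclei the 6 endothelial genes without Erg summed to 37.1 and 66.6 CPM. In the stricter fat nuclei Cytl1 had 17.0 and 28.4 CPM and was not 2-fold apart. The combinations that reached 2-fold differed under other choices of nuclei. With doublets removed they were Sox5 and Sox6 in macrophages (log2 ratios 1.35 and 2.07), with the largest marker sum 3 times the next Sox6 in macrophages (1.72), and in the stricter nuclei Sox5 in macrophages (1.10). In nuclei thinned to 1000 UMIs Runx2 (1.17) and Cytl1 (-1.004) in GFP-only muscle joined Cytl1 in fat. In muscle Cytl1 had 48.3 and 86.3 CPM (ratio 0.560, interval 0.526 to 0.595), and 0.375% of genes were 2-fold apart there; none of the 10 was.

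Sox5 in endothelium had 1352 Female and 957 Male CPM (ratio 1.41, interval 1.39 to 1.44). Its log2 ratio of 0.50 lay outside the middle 95% of genes in endothelium, -0.40 to 0.33, where 0.412% of genes were 2-fold apart. The thinned share of endothelial nuclei with a Sox5 UMI went the same way, 57.8% and 45.4%, and in the stricter nuclei the levels were 1379 and 953 CPM. Cytl1 and Mgp, both also high in endothelium, had ratios of 0.947 (interval 0.934 to 0.961) and 1.02 (1.01 to 1.04) there. Mgp in muscle had a ratio of 1.26 (1.23 to 1.28), from 552 and 439.8 CPM, and Enpp1 in muscle 1.15 (1.05 to 1.26). In fibroblasts, where 0.905% of genes were apart, the Runx2 ratio was 1.48 (1.29 to 1.71), from 51.4 and 34.6 CPM, and that of Sox6 0.750 (0.699 to 0.804), from 151 and 202 CPM.

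Comp was lower in the Female library in muscle (238 and 314 UMIs, ratio 0.593, interval 0.499 to 0.704) and near equal in fibroblasts (ratio 1.12, interval 0.989 to 1.27). The macrophage class was small, with 481 and 696 nuclei, and Sox6 there had 58.5 and 27.2 CPM from 87 and 62 UMIs (ratio 2.15, interval 1.53 to 3.03), but 41.1 and 5.99 CPM with doublets removed and 34.8 and 4.45 CPM in the stricter nuclei; 1.94% of genes were 2-fold apart in that class.

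**Figure D5:**
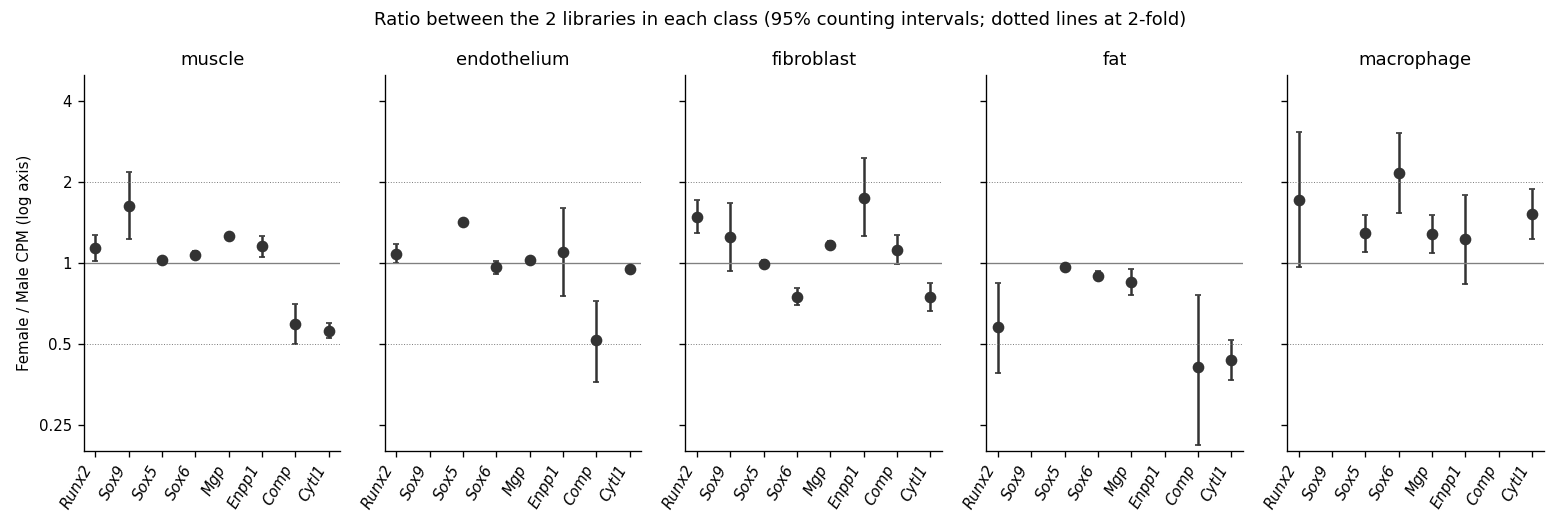
Ratio of Female to Male CPM (vertical log axis) of 8 genes in each of the 5 classes, with 95% counting intervals; genes with fewer than 50 UMIs in a class over both libraries are left out, and dotted lines mark 2-fold differences. Cytl1 lies below 1 in muscle, fibroblasts and fat, and Sox5 lies at 1.41 in endothelium.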

How the data were processed

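Nuclei of the ascending aorta and arch were sequenced in 1 Female and 1 Male pool. The deposited matrices hold raw UMI counts per gene and barcode; Cell Ranger 7.0.0 is named per the file headers, and STAR, Cell Ranger, Seurat 4.4.0 and GRCm38 per the submitters' processing notes. The sources used here do not give the annotation version or the use of strand and introns. Nuclei with at least 300 genes were placed in classes by marker UMIs, doublets were called with scrublet (scanpy 1.11.5) but kept in the main analysis, and counts were summed per library and class. Classes and reporter groups were compared with edgeR 4.0.16 (quasi-likelihood, TMM, library block, a minimum of 50 UMIs per gene, Benjamini-Hochberg, 0.05), and DESeq2 1.42.0 was an alternative. The edgeR fit was also run on simulated sums with a single fixed spread for all genes. Those sums are simpler than these data and do not test the calls reported here. The sexes have 1 library each and no test. The 10 genes are all named; from each wider list up to 4 genes each way with the largest passing fold change are named, with defining markers near 0. Members and lists were chosen with earlier results of these data known. Promoters came from RefSeq (GRCm38.p6), which held 7 of the 10 genes. Some results on the wider lists and on unassigned nuclei are not reported here.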

Additional observations from a re-analysis of the deposited data

Results flagged for a closer look

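For 6 genes the ratio of Female to Male CPM lay above 1 in some classes and below 1 in others, with counting intervals that leave out 1. With 1 library per sex, the differences between classes were not tested. Runx2 had 1.14 in muscle and 1.48 in fibroblasts but 0.576 in fat. Sox5 had 1.03 in muscle, 1.41 in endothelium and 1.29 in macrophages but 0.964 in fat. After adding 5 CPM, its log2 ratio in fat was -0.0522, beside a median of -0.0528 over 7573 genes in fat. Sox5 in fat was thus at the level of the typical gene and not shifted toward the Male library. Most genes in fat lay between -0.73 and 0.66. Sox6 (-0.16) and Mgp (-0.21) lay within this range in fat, and Cytl1 (-1.01) lay below it. Runx2 (4.24 Female and 7.35 Male CPM) and Comp (1.44 and 3.52 CPM) were below the CPM minimum for genes of this range. At such levels the added 5 CPM shrinks their log2 ratios, here -0.42 and -0.40, so these cannot be compared with the range. Sox6 had 1.07 in muscle and 2.15 in macrophages (from 58.5 and 27.2 CPM, but 34.8 and 4.45 CPM in the stricter nuclei) but 0.75 in fibroblasts and 0.897 in fat. Mgp had 1.26 in muscle, 1.02 in endothelium, 1.16 in fibroblasts and 1.28 in macrophages but 0.852 in fat. Comp had 4.59 in macrophages, from 12 Female UMIs of which 10 lay in 1 of 3 nuclei and 4 Male UMIs (0.836 and 1.64 CPM without the barcodes of both libraries), but 0.593 in muscle, 0.515 in endothelium and 0.41 in fat. Cytl1 had 1.52 in macrophages but 0.56 in muscle, 0.947 in endothelium, 0.748 in fibroblasts and 0.435 in fat.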

How the results depend on the processing

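The class comparison called 62 to 73 of the combinations of gene and pair over its alternatives (65 in the reported fit), 62 of them with no replicate block. With median-of-ratios size factors and with no composition scaling 65 of the 65 still passed and 0 changed direction. The latter moved the median log2 fold change of all genes most in muscle over macrophage (-0.16), and by -0.13 in muscle over fibroblast. Some values that did not pass changed sign, and the cause was not tested: Sox9 macrophage over endothelium (-0.43), Sox5 fibroblast over muscle (-0.067, -0.0060, -0.0060 and -0.056), Sox6 fibroblast over endothelium (-0.019), Enpp1 macrophage over muscle (0.0396), Chad macrophage over muscle (0.31, 0.070 and 0.43), Comp macrophage over endothelium (-1.38, -0.32, -0.00084 and -0.0022) and Cytl1 muscle over fibroblast (-0.16, -0.45, -0.052 and -0.48).

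The reporter comparison called 3 genes, but 5 with at least 5 marker UMIs, 5 without shared barcodes, 5 with no low-count filter, 1 with at least 2 reporter UMIs, 0 with DESeq2 and 0 with no replicate block. Over all genes, 318 calls became 556 with at least 5 marker UMIs, 697 with the largest marker sum 3 times the next, 626 without shared barcodes, 500 in the stricter nuclei, 889 with no low-count filter, 95 with DESeq2 and 4 with no replicate block. Comp changed sign (-0.056, -0.069, -0.26, -0.022 and -0.0041), as did Cytl1 with doublets removed (0.13) and in the stricter nuclei (0.15), and the cause was not tested. The sex comparison counted 1 combination, but 2 with at least 5 marker UMIs, 2 with doublets removed, 3 in thinned nuclei, 2 and 0 with pseudocounts of 1 and 20 CPM and 0 with TMM scaling. Leaving out either library leaves 1, with no test. Depth limits Chad, Spp1 and Sox9 most.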
